A study of Mus musculus with 12 samples.

Results

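The genes described here make fatty acids from acetyl-CoA and build them into triglyceride. They are 37 genes of 37750 rows in the table, found by gene name and followed through 10 steps of the pathway. All 37 were found. Scd2, Acsl3 and Srebf1 lie in rows that join the gene with an overlapping one (Mir5114, Utp14b and mmu-mir-6922), so their values include any reads of that neighbour. The RNA came from Ad/NICD mice on a 129 x C57BL/6 background, which carry the active intracellular domain of Notch1 in adipocytes and develop liposarcoma, a malignant tumour of the fat lineage. One group is white adipose tissue (WAT, 4 libraries) from animals 3 weeks old. The other is liposarcoma (LPS, 8 libraries) from animals 9 to 12 months old: 9 months for LPS 2 and LPS 6, 10 months for LPS 3 and LPS 8, 11 months for LPS 1, LPS 5 and LPS 7, and 12 months for LPS 4. Both groups carry the transgene, so no fat without it enters the comparison, and tissue and age cannot be told apart between the groups. The labels name neither the promoter that drives the transgene nor the fat depot, and give no number of animals beyond calling the libraries biological replicates. The p-values below measure the spread between these libraries.

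Lipogenesis starts with citrate, which leaves the mitochondrion and is cut into acetyl-CoA in the cytosol. Acetyl-CoA carboxylase turns acetyl-CoA into malonyl-CoA, and fatty acid synthase joins these units into palmitate, which elongases and desaturases then lengthen and make unsaturated. Acyl-CoA synthetases activate fatty acids, and acyltransferases and lipin phosphatases add them to a glycerol backbone until diacylglycerol acyltransferases complete triglyceride. White adipocytes run the whole route to store energy, and the transcription factors SREBP-1c and ChREBP are known to drive many of its genes.

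The labelled tissues were checked against cell type markers. The summed level of 7 adipocyte markers was 10599 to 12911 FPKM (fragments mapped, per kilobase of transcript and relative to the library's total) over the fat libraries and 69.7 to 2037 FPKM over the tumours. Adipoq, the adipocyte hormone adiponectin, was at 0.0433 to 4.26 FPKM in the tumours against 514 FPKM or more in WAT. Plin1, which coats lipid droplets, ran from 417 to 485 FPKM across WAT and reached at most 32.2 FPKM in LPS. Fabp4, a fatty acid binding protein, kept 66.4 to 2000.5 FPKM in the tumours, against 6301 FPKM or more in fat. The 6 pericyte markers summed to 151 to 171 FPKM in fat, while the tumours held 3354 to 7468 FPKM. Fibroblast and progenitor markers (6 genes) went the other way, from 861 to 1482 FPKM in fat against 15.8 to 348 FPKM in the tumours, as did lymphocyte markers (4 genes), at 93.3 to 180.0 against 10.1 to 57.4 FPKM. Endothelial markers (5 genes) lay at 140.2 to 173 FPKM in fat and 83.6 to 145 FPKM in the tumours, but did not move together. Emcn was higher in the tumours, at 24.2 to 80.3 against 10.3 to 11.2 FPKM, while Pecam1, Cdh5, Kdr and Tek had lower means. Macrophage markers (4 genes) lay at 102 to 182 FPKM in fat and 80.2 to 288 FPKM in the tumours. Epithelial markers (5 genes) summed to at most 14.9 FPKM in any library. Brown adipocyte markers (4 genes) summed to 636 to 1126 FPKM in fat and 0.130 to 0.514 FPKM in the tumours. Most of the sum in fat was Ucp1, the uncoupling protein of brown and beige adipocytes, at 376 to 801 FPKM, against at most 0.299 FPKM in LPS. In WAT, Cidea was at 197 to 309 FPKM, Ppargc1a at 7.55 to 11.9 FPKM and Elovl3 at 0.125 to 5.35 FPKM. Skeletal muscle markers (3 genes) summed to 832 and 802 FPKM in WAT 1 and WAT 4, 2.48 FPKM in WAT 2 and 107 FPKM in WAT 3, while the tumours held 0.264 to 248 FPKM. The part of these differences in the results below was not tested. In such bulk tissue, fewer cells of a type and less RNA per cell cannot be told apart.

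Most genes of the pathway were far lower in the tumours, while 3 rose and 7 did not pass the test. The 37 genes together made up 1.47%, 1.12%, 1.69% and 0.678% of all FPKM in WAT 1 to WAT 4, and 0.0457% (LPS 5) to 0.107% (LPS 3) in the tumours. Of the 37, 35 passed the filter of at least 1 FPKM in at least 4 libraries. Of those 35, 25 were lower in LPS (limma, adjusted p below 0.05), or 71.4%, against 27.0% of all 14821 rows tested. Another 3, or 8.57%, were higher, against 18.9% of all rows. In either direction, 46.0% of all rows were called. The other 7 did not pass the test in either direction. The groups did not overlap in 25 of the 35, of which 24 were lower and 1 higher, against 32.6% of all rows. The median difference between LPS and WAT on the scale of log2(FPKM + 1) was -3.28 over the 35 genes and -0.05 over all rows. Of the 35, 11 were lower by at least 5 on that scale, as were 70 of all rows (0.472%). A gene can pass the filter through 1 group alone, so these counts favour genes that are high in 1 group, and Scd3 and Elovl7 are outside them. The balance over all rows depended on scaling, with 58.8% of calls in the lower direction for values as deposited and 45.2% once the libraries were quantile normalized, where the median over all rows was 0.10. With WAT 1 and WAT 4 left out, 20 of 31 tested genes of the pathway were lower and 0 were higher (limma, with 2 higher at an unadjusted p below 0.05). The filter still asked for 4 libraries there, which left out Gpd1, Pnpla3, Mogat1 and Mlxipl, all lower in the main fit. Agpat5 was tested there and lost its call (limma, adjusted p = 0.204). Of all 13890 rows in that fit, 2114 were lower and 1402 higher. Without LPS 5, whose values read low (median 0.814 of the geometric mean over libraries, against 0.991 to 1.06 elsewhere), 25 of 35 were lower and 4 higher. Of all 14733 rows in that fit, 3978 were lower and 3215 higher.

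**Figure D1:**
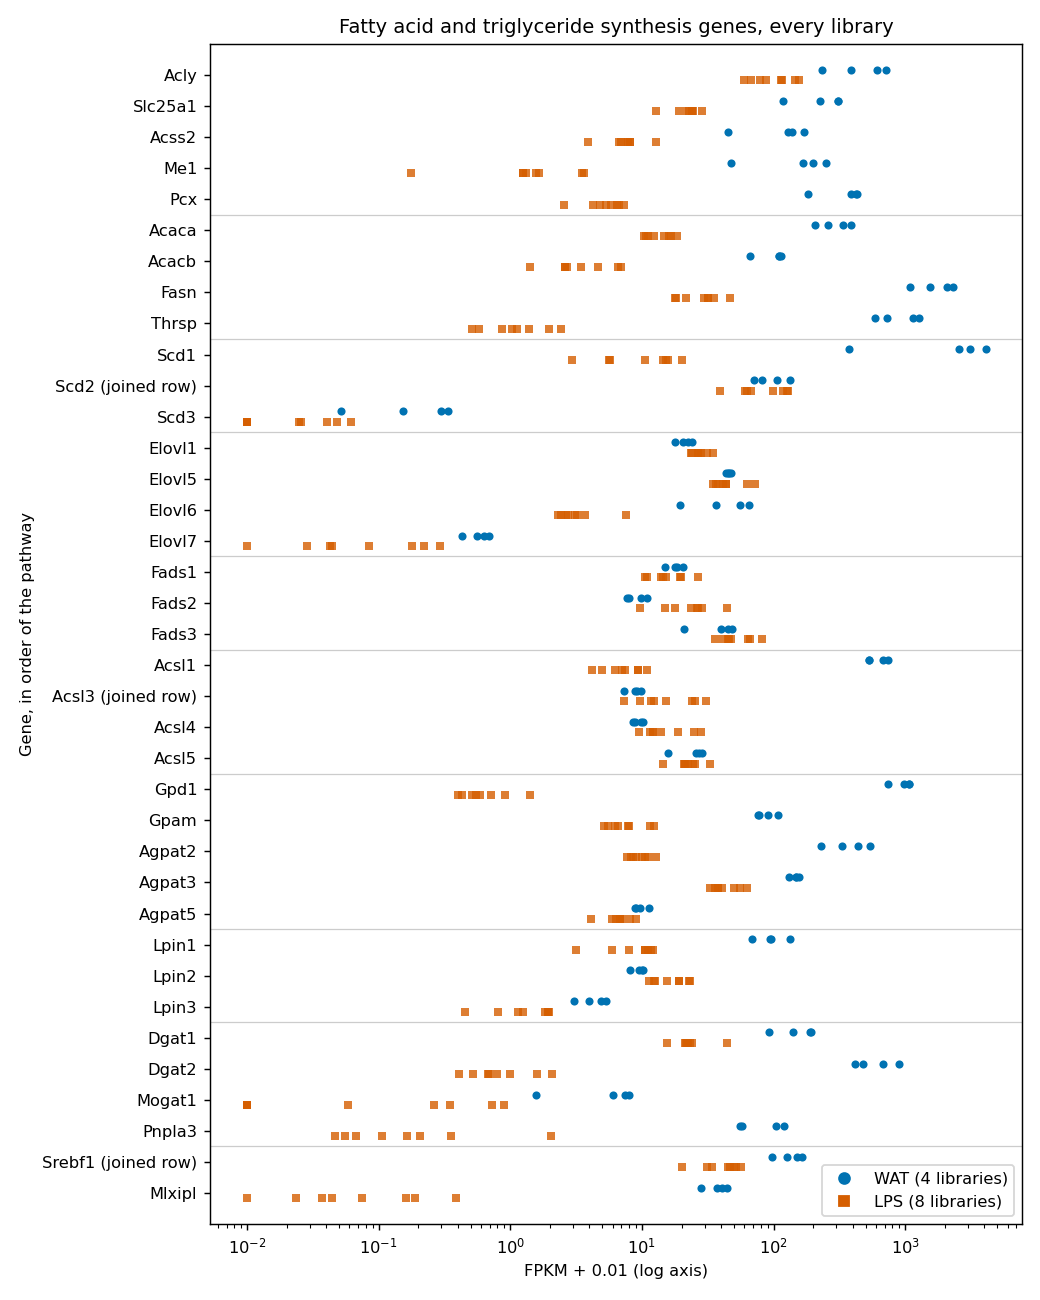
FPKM of the 37 genes in each library on a log scale, with 0.01 FPKM added so that zeros can be drawn, in order of the pathway; circles are the 4 WAT and squares the 8 LPS libraries. Gpd1, Thrsp and Dgat2 show the widest gaps, while the points of Scd2, Elovl5, Fads1 and Acsl5 overlap.

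The promoters of 30 of the 37 genes are in RefSeq's table for GRCm38.p6. The 250 bases upstream of the RefSeq start (for the 9 genes with several starts, the one nearest the 5′ end of the annotated gene) are printed for 2 genes with very large falls, Fasn and Thrsp, and for the 3 genes that rose, Elovl1, Fads2 and Lpin2. The Fasn bases are chr11:120824548-120824797 (minus strand), those of Thrsp chr7:97417551-97417800 (minus strand), those of Elovl1 chr4:118427843-118428092 (plus strand), those of Fads2 chr19:10101504-10101753 (minus strand) and those of Lpin2 chr17:71183282-71183531 (plus strand). They read 5′ to 3′ in the direction of the gene, and capitals mark matches, on either strand, to CCAAT (the box bound by NF-Y), GGGCGG (a GC box bound by SP1), CACGTG (an E-box) or TCACNCCAC (a sterol regulatory element).
Fasn: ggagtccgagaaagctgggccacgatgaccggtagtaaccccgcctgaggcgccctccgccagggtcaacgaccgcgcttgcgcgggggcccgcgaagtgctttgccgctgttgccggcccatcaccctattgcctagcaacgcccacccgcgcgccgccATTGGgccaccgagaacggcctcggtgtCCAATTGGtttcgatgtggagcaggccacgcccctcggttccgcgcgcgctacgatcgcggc
Thrsp: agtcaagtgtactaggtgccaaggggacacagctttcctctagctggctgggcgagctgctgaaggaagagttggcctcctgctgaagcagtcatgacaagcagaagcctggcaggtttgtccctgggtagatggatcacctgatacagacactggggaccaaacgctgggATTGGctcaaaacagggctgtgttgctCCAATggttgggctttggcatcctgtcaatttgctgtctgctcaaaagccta
Elovl1: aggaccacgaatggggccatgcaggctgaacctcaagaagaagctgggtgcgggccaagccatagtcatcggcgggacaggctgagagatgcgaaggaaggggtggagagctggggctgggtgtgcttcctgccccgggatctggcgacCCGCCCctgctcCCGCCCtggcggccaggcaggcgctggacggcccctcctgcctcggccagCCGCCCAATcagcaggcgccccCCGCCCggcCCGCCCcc
Fads2: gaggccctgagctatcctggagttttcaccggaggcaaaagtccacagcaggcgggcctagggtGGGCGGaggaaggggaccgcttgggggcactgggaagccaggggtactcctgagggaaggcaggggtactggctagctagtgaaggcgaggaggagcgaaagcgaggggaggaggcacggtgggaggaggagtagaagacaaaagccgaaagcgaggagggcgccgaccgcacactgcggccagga
Lpin2: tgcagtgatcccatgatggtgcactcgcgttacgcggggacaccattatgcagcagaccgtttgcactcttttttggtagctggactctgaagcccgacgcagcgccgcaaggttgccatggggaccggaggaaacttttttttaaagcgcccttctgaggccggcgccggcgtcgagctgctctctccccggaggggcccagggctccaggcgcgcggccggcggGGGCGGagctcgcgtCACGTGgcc
Fasn holds 3 matches to CCAAT, 1 of which overlaps another match, and Thrsp holds 2. Elovl1 holds 5 matches to GGGCGG and 1 to CCAAT, 1 of these overlapping, Fads2 holds 1 to GGGCGG, and Lpin2 holds 1 to CACGTG and 1 to GGGCGG. The letters CCAAT lay in 15 of the 30 promoters, against 33.8% of all 32851 promoters in the table, and in 10 of 20 genes that fell, 1 of 3 that rose and 4 of 5 not called. GGGCGG lay in 16 of the 30, against 32.7% of all, and in 9 of 20, 3 of 3 and 3 of 5 in the same order. CACGTG lay in 5 of the 30 (Slc25a1, Pcx, Elovl5, Lpin2 and Mlxipl), against 6.02% of all. TCACNCCAC lay in 0 of the 30 and in 1.05% of all, which says only that these letters are not in these windows. Some windows are not upstream of the annotated gene, since its 5′ end can differ from the RefSeq start. The Lpin2 window lies inside the gene, which starts at 71182560. Those of Thrsp and Fads2 overlap their genes, whose 5′ ends are at 97417730 and 10101746. Among windows not printed, that of Acaca begins at 84195188, inside a gene that starts at 84129672.

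The supply of acetyl-CoA and NADPH fell in the tumours at all 5 genes measured. Acly, the ATP citrate lyase that cuts citrate into acetyl-CoA (chromosome 11, 100476353 to 100528000), was at 611, 390.2, 719 and 234 FPKM in WAT 1 to WAT 4. Acly in LPS lay between 59.8 (LPS 5) and 157 FPKM (LPS 8), with a median of 101 FPKM. Every tumour was below every fat library, and Acly kept the most of its level among these 5 genes, with a WAT mean 4.72 times that of LPS and a log2 difference of -2.18 ± 0.33 (SE, adjusted p = 0.000115). Slc25a1, the carrier that takes citrate out of the mitochondrion, fell from WAT, at 239.7 ± 89.5 FPKM (SD, n = 4), to LPS, at 22.3 ± 4.67 FPKM (SD, n = 8), and its log2 difference was -3.30 ± 0.25 (SE, adjusted p = 3.04e-07). Acss2, which makes acetyl-CoA from acetate, fell from WAT, at 120.3 ± 53.1 FPKM (SD, n = 4), to LPS, at 7.78 ± 2.49 FPKM (SD, n = 8), and its log2 difference was -3.69 ± 0.32 (SE, adjusted p = 9.27e-07). Its row spans 1.54 times the length of the annotated gene. The other 2 fell further: Me1, the malic enzyme that yields NADPH, went from WAT, at 166 ± 85.9 FPKM (SD, n = 4), to LPS, at 1.78 ± 1.18 FPKM (SD, n = 8), and its log2 difference was -5.79 ± 0.43 (SE, adjusted p = 2.19e-07). Pcx, pyruvate carboxylase, which refills oxaloacetate for citrate, went from WAT, at 356 ± 117 FPKM (SD, n = 4), to LPS, at 5.41 ± 1.52 FPKM (SD, n = 8), and its log2 difference was -5.76 ± 0.26 (SE, adjusted p = 2.1e-09).

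All 4 genes of malonyl-CoA and palmitate synthesis were lower in the tumours. Fasn, the fatty acid synthase (chromosome 11, 120805940 to 120824178), was at 2067, 1535, 2312 and 1084 FPKM in WAT 1 to WAT 4. The tumours held 17.9 (LPS 1) to 46.9 FPKM (LPS 2), with a median of 30.8 FPKM, so Fasn stayed detected in every tumour but the groups were far apart. Its promoter is among the 15 that hold CCAAT. Its WAT mean was 59.9 times its LPS mean, a log2 difference of -5.86 ± 0.27 (SE, adjusted p = 2.66e-09). Acaca, the cytosolic acetyl-CoA carboxylase, fell from WAT, at 297 ± 78.9 FPKM (SD, n = 4), to LPS, at 13.8 ± 3.06 FPKM (SD, n = 8), and its log2 difference was -4.32 ± 0.19 (SE, adjusted p = 1.87e-09). Acacb, the carboxylase at the outer mitochondrial membrane, whose malonyl-CoA is known to restrain fatty acid oxidation, fell from WAT, at 99.5 ± 22.3 FPKM (SD, n = 4), to LPS, at 3.85 ± 1.99 FPKM (SD, n = 8), and its log2 difference was -4.45 ± 0.30 (SE, adjusted p = 8.36e-08). Every tumour was below every fat library for both carboxylases. Thrsp (Spot 14), a small protein known to promote lipogenesis, ran from 594 to 1274 FPKM across the fat libraries and from 0.507 to 2.44 FPKM across the tumours. It came second to Gpd1 in size of fall among the 35 genes, with a log2 difference of -8.70 ± 0.26 (SE, adjusted p = 4.39e-11).

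For desaturation at carbon 9, which makes oleate from stearate, Scd1 fell in the tumours, while Scd2 did not pass the test. Scd1 (chromosome 19, 44394451 to 44407709) was the most abundant gene of the pathway in 3 of 4 fat libraries, at 2559, 3101, 4075 and 372 FPKM in WAT 1 to WAT 4. Scd1 in the tumours lay between 2.93 (LPS 1) and 20.0 FPKM (LPS 7), with a median of 12.5 FPKM. The groups did not overlap although WAT 4 was far below the other fat libraries, and the log2 difference was -7.44 ± 0.61 (SE, adjusted p = 5.5e-07). Without WAT 4 that difference was -8.21. Scd2, a neighbour on the same chromosome (chromosome 19, 44293676 to 44306864), was at 107, 82.4, 134 and 70.5 FPKM in WAT 1 to WAT 4. Scd2 in the tumours lay between 38.9 (LPS 5) and 128 FPKM (LPS 3), with a median of 82.9 FPKM. The groups overlapped in part, with 4 of 8 tumours below every fat library and 0 above the highest. The log2 difference of -0.23 ± 0.31 (SE, adjusted p = 0.583) did not pass the test. Scd3 was near 0 everywhere, with at most 0.328 FPKM in a fat library and 0.0517 FPKM in a tumour, and was not tested.

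Among the elongases, 1 gene rose, 1 fell and 1 did not pass the test. Elovl6, which extends palmitate to stearate, was at 56.1, 36.9, 64.7 and 19.4 FPKM in WAT 1 to WAT 4. Elovl6 in LPS lay between 2.28 (LPS 8) and 7.52 FPKM (LPS 2), with a median of 2.92 FPKM. Every tumour was below every fat library, with a log2 difference of -3.28 ± 0.31 (SE, adjusted p = 2e-06). Elovl5, which extends polyunsaturated fatty acids, was at 47.2, 45.7, 43.7 and 45.2 FPKM in WAT 1 to WAT 4. The tumours spread around that level, between 34.4 (LPS 5) and 71.8 FPKM (LPS 3), with a median of 42.4 FPKM, and its log2 difference was -0.01 ± 0.18 (SE, adjusted p = 0.965). Elovl1, which makes very long saturated chains (chromosome 4, 118428093 to 118437352), was at 20.5, 23.8, 22.6 and 17.7 FPKM in WAT 1 to WAT 4. Elovl1 in LPS lay between 23.7 (LPS 1) and 34.9 FPKM (LPS 6), with a median of 27.0 FPKM. In 7 of 8 tumours the level exceeded that of the highest fat library, and Elovl1 rose 1.31-fold, a log2 difference of 0.38 ± 0.12 (SE, adjusted p = 0.0209). That call was lost without WAT 1 (adjusted p = 0.0599) and without WAT 4 (adjusted p = 0.0929). Over all alternatives its adjusted p ran from 0.00599 to 0.298, and the row spans 1.90 times the length of the annotated gene. Elovl7 was below the filter, between 0.421 and 0.682 FPKM in fat and at most 0.281 FPKM in the tumours, without overlap.

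In front-end desaturation, the step that makes highly unsaturated fatty acids, 1 gene rose and 2 did not pass the test. Fads1, Fads2 and Fads3 lie side by side on chromosome 19, between 10041548 and 10196870. Fads2, the delta-6 desaturase that opens the route, was at 7.98, 10.9, 7.74 and 9.76 FPKM in WAT 1 to WAT 4. Fads2 in LPS lay between 9.71 (LPS 5) and 44.6 FPKM (LPS 3), with a median of 25.1 FPKM. All tumours but LPS 5, or 7 of 8, were above every fat library. Fads2 rose 2.63-fold, a log2 difference of 1.20 ± 0.30 (SE, adjusted p = 0.00588). With WAT 1 and WAT 4 left out its adjusted p was 0.0669, the highest over all alternatives, which began at 0.000119. Fads1, the delta-5 desaturase, was at 18.6, 20.6, 18.0 and 15.0 FPKM in WAT 1 to WAT 4. Fads1 in the tumours lay between 10.5 (LPS 1) and 26.6 FPKM (LPS 3), with a median of 14.8 FPKM, on both sides of the fat libraries, and the log2 difference of -0.18 ± 0.21 (SE, adjusted p = 0.51) did not pass. Fads3, a related desaturase and the most abundant of these 3, was at 45.3, 39.6, 48.2 and 20.8 FPKM in WAT 1 to WAT 4. Fads3 in the tumours lay between 35.9 (LPS 5) and 81.9 FPKM (LPS 3), with a median of 46.7 FPKM. WAT 4 was below every tumour and the other 3 fat libraries lay within the tumours' range, and the log2 difference of 0.48 ± 0.25 (SE, adjusted p = 0.132) did not pass.

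Of the 4 genes that activate fatty acids to acyl-CoA, 1 fell in the tumours, and the other 3 did not pass the test. Acsl1, the acyl-CoA synthetase known as the main one of adipocytes (chromosome 8, 46471041 to 46536051), was at 534, 674, 738 and 527 FPKM in WAT 1 to WAT 4. Acsl1 in LPS lay between 4.21 (LPS 2) and 10.9 FPKM (LPS 3), with a median of 7.25 FPKM. The WAT mean was 83.1 times the LPS mean, a log2 difference of -6.23 ± 0.21 (SE, adjusted p = 1.54e-10). Acsl5, a synthetase of the endoplasmic reticulum and mitochondria, was at 27.0, 25.9, 28.5 and 15.9 FPKM in WAT. Acsl5 in the tumours lay between 14.6 (LPS 8) and 33.1 FPKM (LPS 6), with a median of 21.8 FPKM, over the same range, and the log2 difference was -0.09 ± 0.19 (SE, adjusted p = 0.746). Acsl4, which prefers arachidonate, was at 8.56, 9.82, 10.2 and 8.82 FPKM in WAT. Acsl4 in LPS lay between 9.46 (LPS 5) and 28.2 FPKM (LPS 7), with a median of 13.0 FPKM, with 7 of 8 tumours above every fat library. Its log2 difference of 0.66 ± 0.26 (SE, adjusted p = 0.051) missed the threshold, and it passed without LPS 1 (0.0465), LPS 2 (0.0437), LPS 5 (0.0228) or LPS 8 (0.0491), given as adjusted p. Over all alternatives its adjusted p ran from 0.00389 to 0.285. Acsl3, a synthetase of the endoplasmic reticulum and lipid droplets, was at 9.88, 7.26, 8.80 and 9.18 FPKM in WAT. The tumours were scattered, between 7.24 (LPS 1) and 30.5 FPKM (LPS 2), with a median of 13.8 FPKM. Its log2 difference of 0.74 ± 0.32 (SE, adjusted p = 0.0774) missed the threshold too, and passed without LPS 1, the lowest tumour (adjusted p = 0.0238, within a range of 0.0129 to 0.197 over all alternatives).

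All 5 genes of the glycerol backbone and the first acylations were lower in the tumours. Gpd1, the cytosolic glycerol-3-phosphate dehydrogenase that makes the backbone (chromosome 15, 99715543 to 99725005), was at 983, 738, 1071 and 1064 FPKM in WAT 1 to WAT 4. Gpd1 in the tumours lay between 0.388 (LPS 4) and 1.39 FPKM (LPS 8), with a median of 0.559 FPKM. WAT 4 was as high as WAT 3 here, and the log2 difference of -9.17 ± 0.16 (SE, adjusted p = 5.97e-13) was the largest fall among the 35 genes. Gpam, the mitochondrial glycerol-3-phosphate acyltransferase, fell from WAT, at 88.2 ± 14.7 FPKM (SD, n = 4), to LPS, at 7.92 ± 2.73 FPKM (SD, n = 8), and its log2 difference was -3.36 ± 0.21 (SE, adjusted p = 5.18e-08). The next enzymes, the AGPATs, add the second fatty acid and differed widely. Agpat2, whose loss in humans causes congenital lipodystrophy, was at 440.1, 332, 544 and 230.4 FPKM in WAT 1 to WAT 4. Agpat2 in LPS lay between 7.76 (LPS 3) and 12.9 FPKM (LPS 7), with a median of 9.49 FPKM, far below any fat library, with a log2 difference of -5.12 ± 0.20 (SE, adjusted p = 6.03e-10). Agpat3 was at 148, 131, 157 and 148 FPKM in WAT 1 to WAT 4. Agpat3 in the tumours lay between 33.0 (LPS 1) and 62.7 FPKM (LPS 8), with a median of 39.2 FPKM. Agpat3 thus kept a larger share of its level, with a log2 difference of -1.73 ± 0.17 (SE, adjusted p = 2.38e-06). Agpat5 was at 9.07, 8.88, 9.58 and 11.3 FPKM in WAT 1 to WAT 4. Agpat5 in the tumours lay between 4.10 (LPS 8) and 9.00 FPKM (LPS 7), with a median of 6.81 FPKM, with 7 of 8 below every fat library. Its log2 difference of -0.48 ± 0.16 (SE, adjusted p = 0.0266) passed, but not without WAT 1 (adjusted p = 0.0506), WAT 3 (adjusted p = 0.0634) or WAT 4 (adjusted p = 0.0986). Nor did it pass after quantile normalization (adjusted p = 0.0718) or median-of-ratios scaling (adjusted p = 0.0535), and over all alternatives its adjusted p ran from 0.00472 to 0.204.

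The lipins, phosphatases that turn phosphatidate into diacylglycerol, moved in opposite directions. Lpin1, the main lipin of fat, was at 95.8, 93.2, 133 and 69.1 FPKM in WAT 1 to WAT 4. Lpin1 in LPS lay between 3.18 (LPS 5) and 12.2 FPKM (LPS 3), with a median of 10.5 FPKM, and it fell by a log2 difference of -3.33 ± 0.29 (SE, adjusted p = 1.02e-06). Lpin3 was low in both, at 5.30, 3.03, 4.90 and 3.95 FPKM in WAT. Its tumour levels lay between 0.446 (LPS 1) and 1.97 FPKM (LPS 7), with a median of 1.53 FPKM, and its log2 difference was -1.16 ± 0.22 (SE, adjusted p = 0.000733). Lpin2 was at 10.0, 10.2, 9.44 and 8.18 FPKM in WAT 1 to WAT 4. Lpin2 in the tumours lay between 11.4 (LPS 8) and 23.2 FPKM (LPS 3), with a median of 17.3 FPKM. All 8 were above all 4 fat libraries, the only rise without overlap among the 35 genes. Lpin2 rose 1.80-fold, a log2 difference of 0.74 ± 0.19 (SE, adjusted p = 0.00662), and its adjusted p over all alternatives ran from 0.000366 to 0.0835, the latter with WAT 1 and WAT 4 left out. Its RefSeq window, which lies inside the annotated gene, is among the 5 that hold CACGTG. The row of Lpin2 is 9.24 times as long as the annotated gene and holds 11 other rows, so other transcripts may enter its value. The rows of Lpin3 and Agpat2 are likewise 6.90 and 4.97 times as long as their genes.

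All 4 genes of the triglyceride step were lower in the tumours. Dgat2, the acyltransferase known for newly made fatty acids, was at 672, 477, 899 and 413 FPKM in WAT 1 to WAT 4. Dgat2 in LPS lay between 0.397 (LPS 2) and 2.05 FPKM (LPS 5), with a median of 0.735 FPKM. No tumour came near the lowest fat library, and the log2 difference was -8.28 ± 0.24 (SE, adjusted p = 4.39e-11). Dgat1, the unrelated enzyme with the same reaction, was at 139.5, 189.7, 193 and 92.8 FPKM in WAT 1 to WAT 4. Dgat1 in the tumours lay between 15.4 (LPS 5) and 44.7 FPKM (LPS 6), with a median of 22.2 FPKM. All tumours were below all fat libraries, with a log2 difference of -2.61 ± 0.25 (SE, adjusted p = 2.03e-06). Mogat1, a monoacylglycerol acyltransferase, was at 8.03, 6.01, 7.37 and 1.56 FPKM in WAT, was listed at 0 in LPS 1, LPS 3 and LPS 8, and reached at most 0.886 FPKM (LPS 5), with a log2 difference of -2.29 ± 0.32 (SE, adjusted p = 5.71e-05). Pnpla3, a lipid droplet protein, fell from WAT, at 84.7 ± 33.0 FPKM (SD, n = 4), to LPS, at 0.368 ± 0.673 FPKM (SD, n = 8), and its log2 difference was -5.99 ± 0.30 (SE, adjusted p = 6.3e-09). Its LPS mean rests on LPS 1 at 2.01 FPKM, and the LPS median was 0.126 FPKM.

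**Figure D2:**
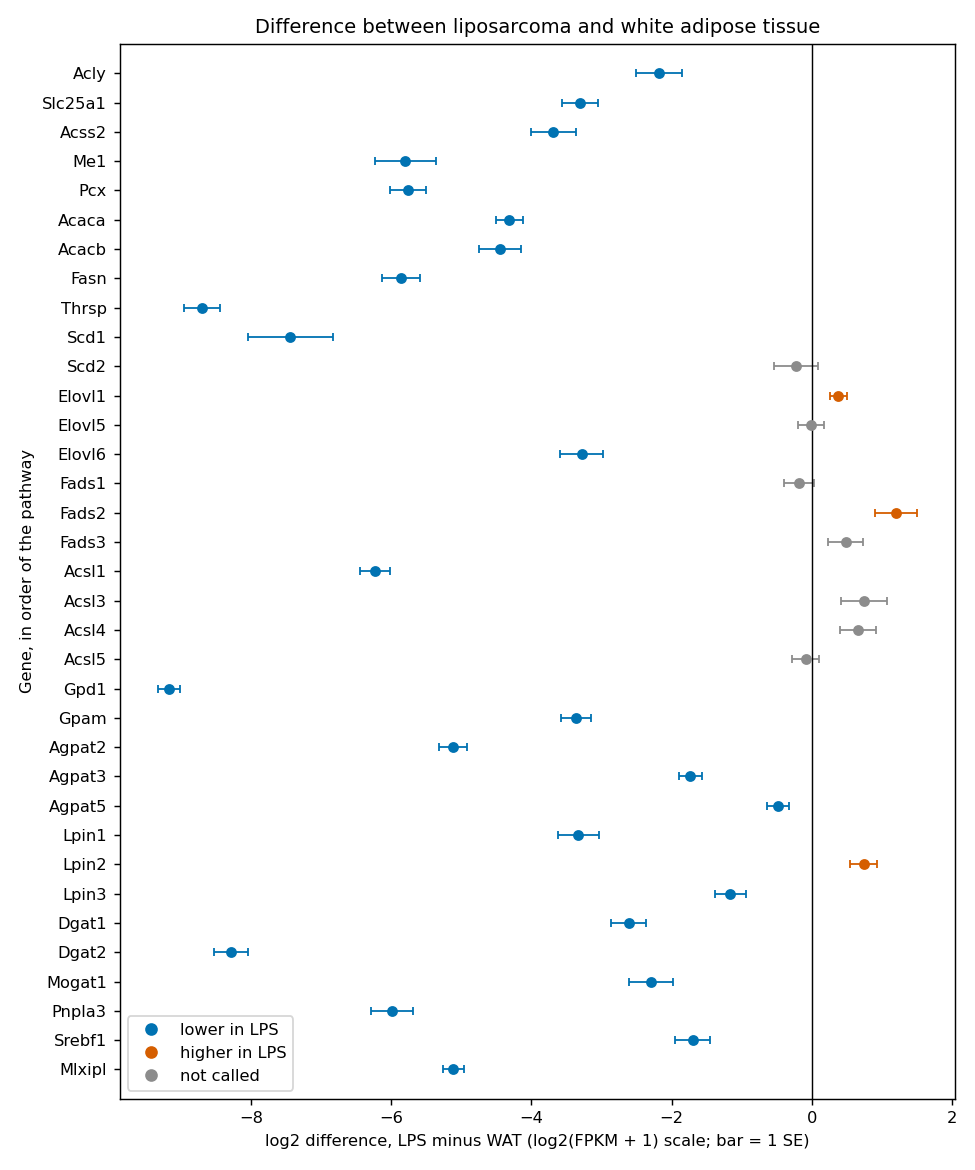
Log2 difference, LPS minus WAT, of log2(FPKM + 1) for the 35 tested genes in order of the pathway; points are limma estimates from 4 WAT and 8 LPS libraries, and bars are 1 SE. The falls reach -9.17 at Gpd1, and the 3 rises are 0.38 (Elovl1), 1.20 (Fads2) and 0.74 (Lpin2).

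The transcription factors of the pathway fell by unequal amounts. Srebf1, which encodes SREBP-1a and SREBP-1c, was at 149, 97.5, 128 and 165 FPKM in WAT 1 to WAT 4. Srebf1 in LPS lay between 20.3 (LPS 5) and 56.9 FPKM (LPS 4), with a median of 45.6 FPKM. Every tumour was below every fat library, but Srebf1 stayed detected at no less than 20.3 FPKM, with a log2 difference of -1.69 ± 0.25 (SE, adjusted p = 0.000102). The row of Srebf1, 5.00 times the length of the gene, holds 3 other rows, so other transcripts may enter its value. It also does not part the isoforms. Mlxipl, which encodes the glucose-responsive factor ChREBP, was at 44.5, 28.0, 40.9 and 36.9 FPKM in WAT. It was listed at 0 in LPS 2 and reached at most 0.377 FPKM (LPS 1), with a log2 difference of -5.11 ± 0.15 (SE, adjusted p = 3.79e-11).

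The make-up of most enzyme families differed between fat and tumour. Shares are given as parts of the family's summed FPKM, with the unrelated Dgat pair counted as a family. Scd1 made up 84.1% to 97.4% of the Scd family in WAT and 4.44% to 27.0% in LPS, where Scd2 held 72.9% to 95.5%. Acsl1 made up 92.2% to 94.0% of the Acsl genes in WAT and 6.29% to 15.0% in LPS, where Acsl5 held 25.2% to 48.3%. The summed FPKM of both families was nevertheless lower in every tumour, at 53.4 to 144 FPKM against 442 to 4208 FPKM for Scd and 48.3 to 76.4 FPKM against 561 to 786 FPKM for Acsl. Dgat2 made up 71.6% to 82.8% of the Dgat pair in WAT and 1.50% to 11.8% in LPS. Agpat3 held 22.1% to 37.9% of the Agpat genes in WAT and 63.3% to 83.3% in LPS. Lpin2 held 6.42% to 10.1% of the lipins in WAT and 50.3% to 70.9% in LPS. The summed FPKM of the Fads genes overlapped between groups, at 45.6 to 73.9 FPKM for fat and 56.5 to 153 FPKM for the tumours. Elovl5 held 33.2% to 54.5% of the Elovl genes in WAT and 51.5% to 67.5% in LPS.

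**Figure D3:**
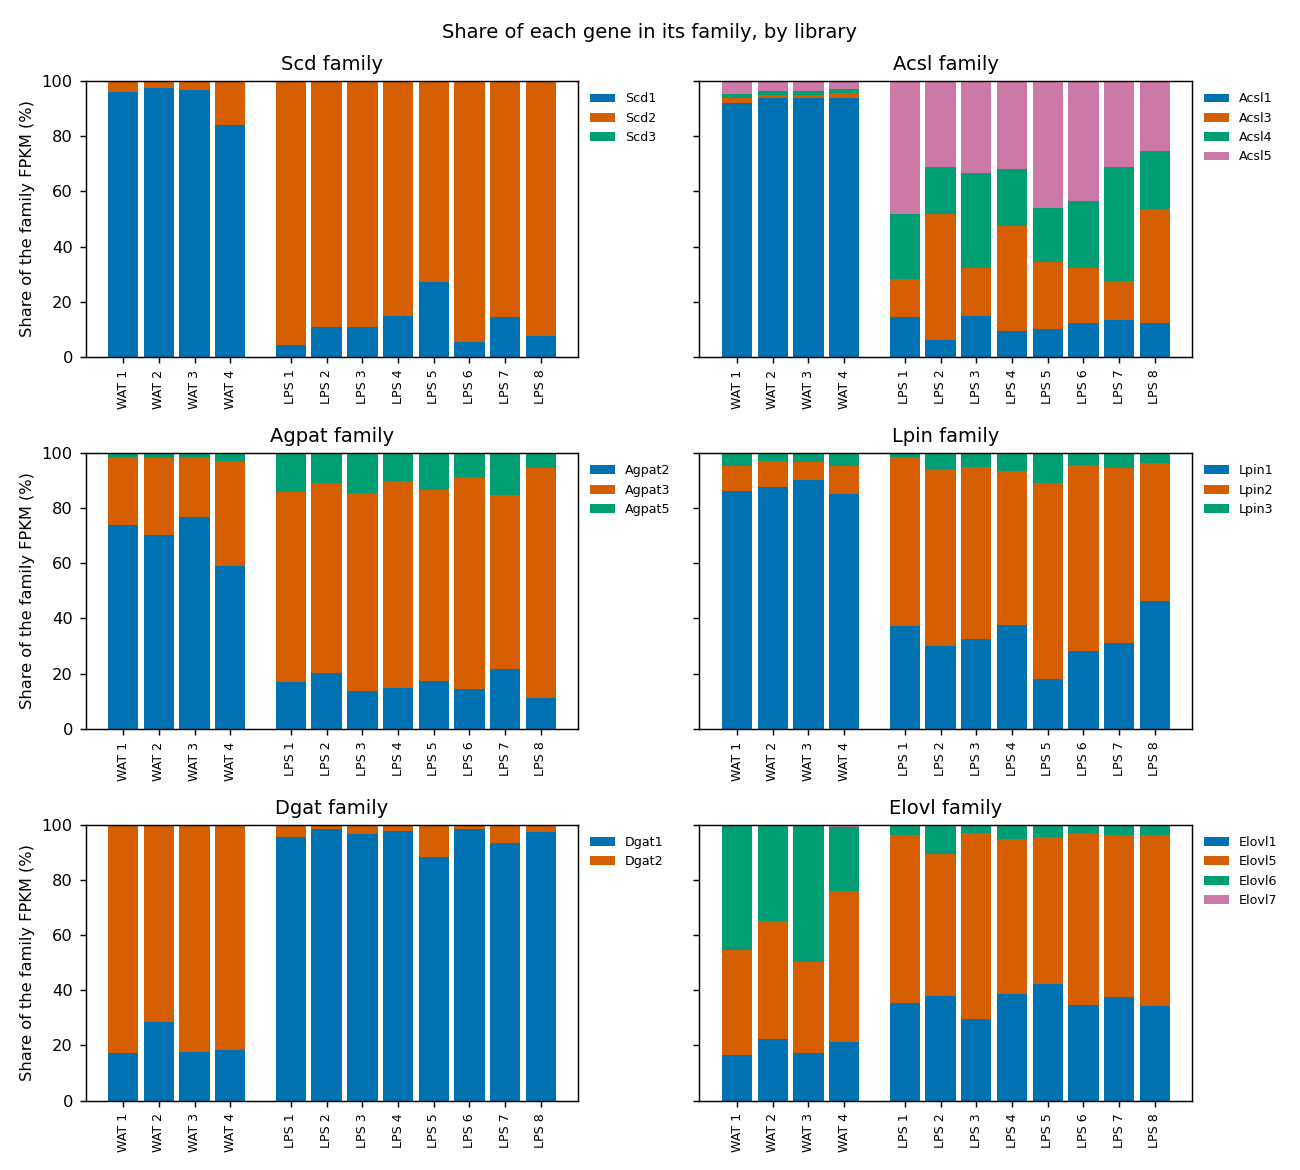
Share of each family's summed FPKM held by each of its genes, in percent, per library (WAT 1 to 4, then LPS 1 to 8). Acsl1 holds at least 92.2% of its family in every WAT library and at most 15.0% in every LPS library.

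Whether 2 genes of the same step differed in their change was tested directly on their log2 ratio within each library. This used an exact permutation test, two-sided, over all 495 ways to divide the libraries into 4 and 8. Of 14 pairs, 12 passed after Benjamini-Hochberg adjustment, each with exact p = 0.00202, the smallest that such a test can give, and adjusted p = 0.00236. In all 12 the groups did not overlap, as in 32.6% of all single rows tested. The pairs were chosen with earlier results of these data known, and no share over other pairs of genes was computed. The count of 12 therefore does not show how often pairs of genes differ. The ratio of Scd1 to Scd2 had log2 means of 4.27 ± 1.29 in WAT (SD, n = 4) and -2.93 ± 0.86 in LPS (SD, n = 8), a difference of -7.21 (-7.84 without WAT 4). For Acsl1 the differences were -6.97 against Acsl3, -6.89 against Acsl4 and -6.15 against Acsl5. Dgat2 against Dgat1 differed by -5.67, from log2 means of 1.99 ± 0.44 in WAT (SD, n = 4) and -3.68 ± 0.69 in LPS (SD, n = 8). Agpat2 differed by -3.38 against Agpat3 and by -4.64 against Agpat5. Lpin1 differed by -4.08 against Lpin2 and by -2.17 against Lpin3. Elovl6 differed by -3.27 against Elovl5 and by -3.66 against Elovl1. In the Fads cluster the ratio of Fads1 to Fads2 turned over, with log2 means of 0.92 ± 0.26 in WAT (SD, n = 4) and -0.47 ± 0.46 in LPS (SD, n = 8). In the Scd, Acsl, Agpat, Lpin and Dgat families, the gene with the largest share in WAT fell most. The other families did not follow this. Acaca held 69.7% to 77.9% of the carboxylase pair in WAT, but its difference (-4.32) was close to that of Acacb (-4.45). Fads3 held the largest Fads share in WAT, at 45.7% to 65.2%, and did not fall (0.48). Elovl6 led its family in WAT 1 and WAT 3, and Elovl5 in WAT 2 and WAT 4. Share and fall also draw on the same WAT values. The ratio of Acaca to Acacb did not differ beyond the spread (0.13, exact p = 0.723). The ratio of Fads2 to Fads3 differed by 0.72 and missed the adjusted threshold (exact p = 0.0485, adjusted 0.0522). It passed without WAT 4 (permutation, adjusted p = 0.0196) and without LPS 5 (permutation, adjusted p = 0.0359), within a range of 0.0196 to 0.17 over all alternatives.

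**Figure D4:**
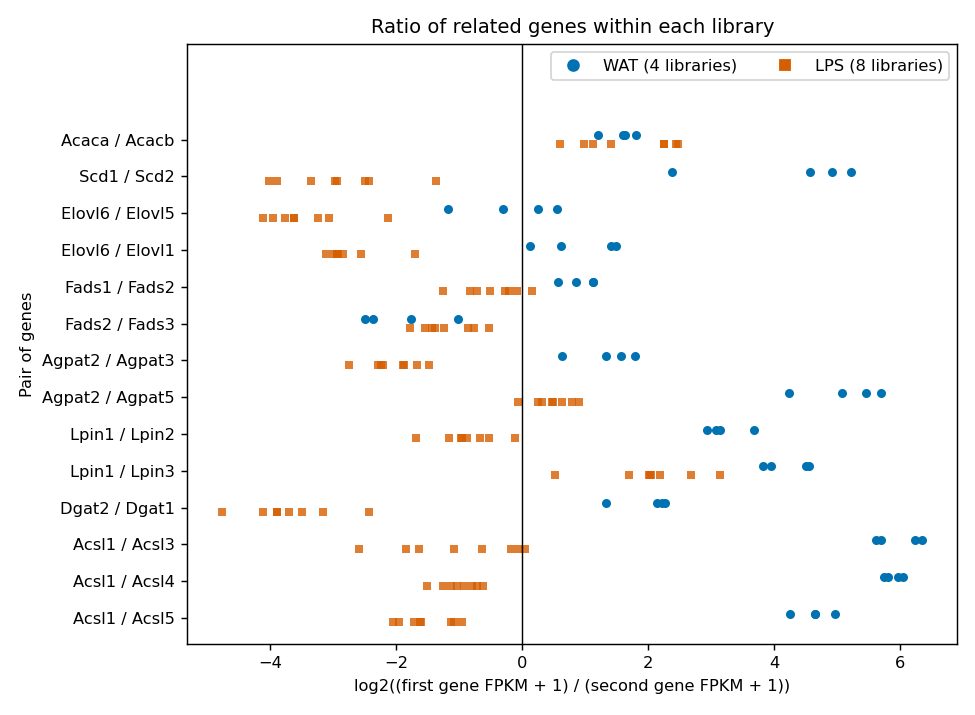
Log2 ratio of 2 genes of the same step, log2((first FPKM + 1)/(second FPKM + 1)), in each of the 4 WAT (circles) and 8 LPS (squares) libraries. The groups are apart in 12 of 14 pairs, and the points of Acaca / Acacb and Fads2 / Fads3 overlap.

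Among the fat libraries, WAT 4 held the lowest level of 23 of the 35 genes that were at 1 FPKM or more in a fat library, and WAT 3 held the highest of 21. Scd1 in WAT 4 was 11.5% of the mean of the other 3, Me1 23.2%, Acss2 31.2% and Elovl6 36.9%. Other genes of the pathway were not low there, with Gpd1 at 114% of the mean of the others, Gpam at 133% and Srebf1 at 132%. The 7 adipocyte markers went both ways in WAT 4. Against the mean of the other 3, Cfd was at 112%, Fabp4 at 109%, Plin1 at 109% and Lipe at 104%, while Adipoq was at 84.2%, Cidec at 68.2% and Retn at 57.9%. Dividing each library by its median ratio left WAT 4 lowest in 24 of 35. The muscle markers summed to 802 FPKM in WAT 4 and 832 FPKM in WAT 1, which held the lowest level of 1 of the 35. The part of muscle RNA in this pattern was not tested.

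Among the tumours, no library led throughout. LPS 5 held the lowest level of 14 of 33 genes at 1 FPKM or more in a tumour, and of 8 of 34 after division by its low median ratio of 0.814. LPS 3 held the highest of 9 and LPS 7 of 8 of the 33. The 9 genes highest in LPS 3 were Fads1, Fads2, Fads3, Elovl5, Scd2, Lpin2, Lpin1, Acss2 and Acsl1. Pparg, the receptor that directs adipocyte differentiation, was at 82.2, 94.2 and 66.5 FPKM in LPS 1, LPS 3 and LPS 7. In the other 5 tumours it was at 2.93 to 16.4 FPKM, and in WAT at 70.4 to 134 FPKM. These are descriptions without a test.

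**Figure D5:**
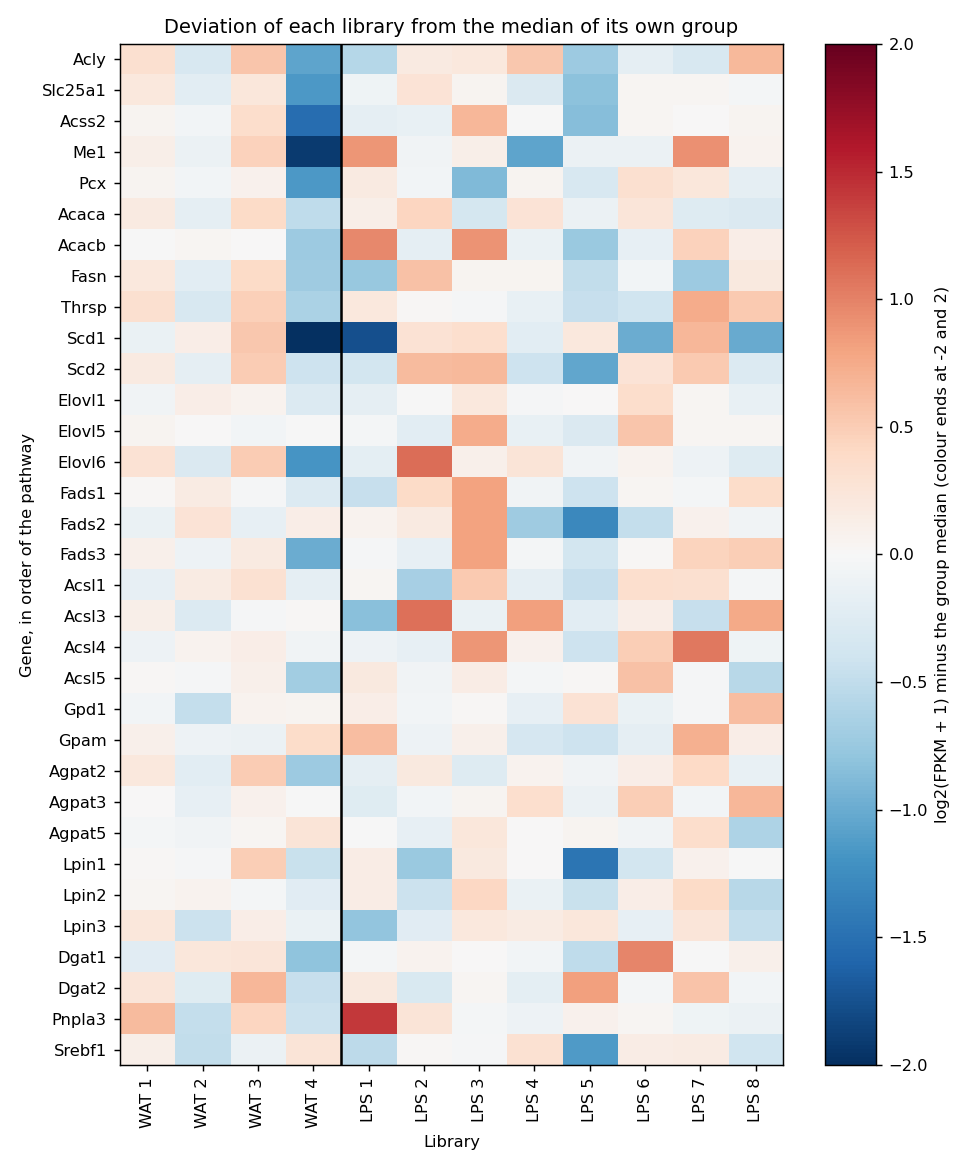
Deviation of each gene's log2(FPKM + 1) from the median of its own group in each library, on a colour scale from -2 to 2, for 33 genes. Blocks of low values stand out in WAT 4, and the tumours show no shared order.

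Age was tested within LPS as a slope per month over the 8 tumours. In limma 0 of 13280 rows (0.00%) passed, and 228 rows (1.72%) had an unadjusted p below 0.05. Of the 30 genes of the pathway tested, 0 passed and 0 had an unadjusted p below 0.05. The lowest unadjusted p among them was 0.0717.

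Beyond the 37 genes, 8 lists of genes in or around lipid synthesis were read out, among them supply, regulation and malonyl-CoA breakdown. Of their 98 tested genes, 62 were lower, 7 were higher and 29 did not pass, with a median log2 difference of -1.13. The share that was lower differed between the lists. Of all rows tested, 27.0% were lower and 18.9% higher. Of 21 genes that supply NADPH and citrate, 19 were lower, 1 higher and 1 not called. Tkt, the transketolase of the pentose phosphate route (a joined row), fell by a log2 difference of -3.94 ± 0.25 (SE, adjusted p = 4.62e-08), and Pdhb, a subunit of pyruvate dehydrogenase, fell too, at -3.62 ± 0.12 (SE, adjusted p = 1.25e-10). Nnt, which makes NADPH in the mitochondrion, rose by 0.55 ± 0.18 (SE, adjusted p = 0.0229), a call lost without WAT 2 or WAT 3 (adjusted p of 0.00284 to 0.0911 over all alternatives). Me2, the mitochondrial malic enzyme, did not pass, at -0.06. Of 5 tested genes that make, use or carry glycerol and its precursors, 4 were lower and 1 higher. Pck1, the cytosolic PEP carboxykinase of glyceroneogenesis, was at 688, 1428, 1230.1 and 699.6 FPKM in WAT 1 to WAT 4. Pck1 in LPS lay between 0.169 (LPS 1) and 0.579 FPKM (LPS 5), with a median of 0.238 FPKM, and its log2 difference was -9.54 ± 0.19 (SE, adjusted p = 1.21e-12). Its mitochondrial paralog Pck2 was at 7.30, 8.38, 7.75 and 11.4 FPKM in WAT 1 to WAT 4. Tumour levels of Pck2 lay between 12.0 (LPS 5) and 30.5 FPKM (LPS 3), with a median of 22.2 FPKM. Every tumour exceeded every fat library, and Pck2 rose by 1.24 ± 0.22 (SE, adjusted p = 0.000486). Aqp7, the glycerol channel of adipocytes, fell, with a difference of -5.37 ± 0.33 (SE, adjusted p = 3.6e-08).

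Of 20 regulators of lipid synthesis, 9 were lower, 2 higher and 9 not called. Over all rows tested, 27.0% were lower, 18.9% higher and 46.0% called in either direction. Cebpa, a factor of adipocyte differentiation, fell by a log2 difference of -5.07 ± 0.30 (SE, adjusted p = 2.43e-08), and Prkaa2, a catalytic subunit of the kinase AMPK, fell too, at -2.55 ± 0.20 (SE, adjusted p = 3.71e-07). Its paralog Prkaa1 rose by 0.45 ± 0.13 (SE, adjusted p = 0.0158), and Usf1, a factor that binds E-boxes (a joined row), by 0.79 ± 0.22 (SE, adjusted p = 0.00958). Prkaa1 lost its call without WAT 2 and under the replicate block (at most 0.0722 over all alternatives, as adjusted p), and both lost it with WAT 1 and WAT 4 left out. Nr1h3, the oxysterol receptor LXR-alpha (a joined row) and the most abundant regulator not called, had a difference of 0.17 ± 0.42 (SE, adjusted p = 0.773). Pparg fell, with a difference of -2.38 ± 0.88 (SE, adjusted p = 0.0414) on the same scale, a call lost in 14 of 23 alternatives, where its adjusted p reached 0.242. Among 9 other tested enzymes of elongation and desaturation, 5 were lower, 1 higher and 3 not called. Ptplb, a dehydratase of the elongation cycle, fell, with a difference of -2.86 ± 0.14 (SE, adjusted p = 4.98e-09), and Cyb5b, a cytochrome b5, fell from WAT, at 117 ± 18.7 FPKM (SD, n = 4), to LPS, at 29.8 ± 10.8 FPKM (SD, n = 8) (adjusted p = 3.12e-05). Cyb5r3, the reductase that passes electrons to cytochrome b5 and so to desaturases, rose by 0.91 ± 0.15 (SE, adjusted p = 0.000279). Degs1, which desaturates ceramide precursors, did not pass, at -0.06.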

How the data were processed

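The authors deposited 1 table of FPKM for 12 libraries. Per the labels' protocols, these were stranded libraries of total RNA after removal of ribosomal RNA. Named in the submitters' processing notes are Cuffdiff 2.2.1, Cufflinks 2.2.1, TopHat2 2.1.0, Bowtie2 and Trimmomatic, with build GRCm38 and no stated roles. The sources used here do not say whether FPKM were also scaled between libraries.

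Group differences of log2(FPKM + 1) were tested in limma 3.58.1 under R 4.3.3 (two-sided, robust moderation with a mean-variance trend), over the 14821 rows that reached 1 FPKM in 4 or more libraries. Adjusted p-values are Benjamini-Hochberg, with 0.05 as the threshold. This scale understates falls to levels near or below 1 FPKM. Fits were tested on simulated data. Of repeated names, the row with the highest mean was used. Coordinates are GRCm38, counted from 1. The table holds no counts, and its low values put 1 fragment of a 2 kb transcript at 0.0181 FPKM (WAT 1, the deepest) to 0.0470 FPKM (LPS 1). Values per library are given for the most abundant gene of each step, genes that rose or were not called, and gene pairs past the threshold. Of other lists, the 2 largest calls each way and the most abundant gene not called could be named. The genes, lists and pairs were chosen with earlier results of these data known. Alternatives were other pseudocounts, filters, scalings, array weights, plain empirical Bayes, a replicate block, a permutation test per gene and libraries left out.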

Additional observations from a re-analysis of the deposited data

Results flagged for a closer look

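Within each group, single libraries that stand far from the rest were looked for with Dixon's test at its 95% level, which flags about 1 in 20 groups by chance. It was run on 35 genes in WAT and 33 in LPS, and marked 2 and 4. In WAT both were low values of WAT 4: Pcx at 182 FPKM, with the other 3 between 388 and 430.2 FPKM, and Acacb at 66.1 FPKM, with the others between 109 and 113 FPKM. In LPS 4 genes were each high in 1 tumour, a different one each time. Acss2 was 12.9 FPKM in LPS 3 against at most 8.16 FPKM elsewhere. Elovl6 was 7.52 FPKM in LPS 2 against at most 3.67 FPKM. Dgat1 was 44.7 FPKM in LPS 6 against at most 23.9 FPKM. Pnpla3 was 2.01 FPKM in LPS 1 against at most 0.342 FPKM. All 4 tumour values remained below the lowest fat library of their gene.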

How the results depend on the processing

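Calls on the genes of the pathway kept their direction and side of the threshold in 755 of 793 values over 23 alternatives, and most exceptions were the small differences. With WAT 1 and WAT 4 left out because of their muscle RNA, an alternative added after seeing the data, 1402 rows were higher and 2114 lower, and 0 genes of the pathway were higher; fewer samples and fewer genes enter that fit. Quantile normalization called 6 of the genes and 4182 of all rows higher, and array weights 5 and 4029. With 1 library left out, 2 to 5 were higher and 22 to 25 lower, of 33 genes tested without a WAT library. Over all rows the same fits called 2156 to 3215 higher and 2902 to 4039 lower. Without a filter 2646 rows were higher and 5387 lower. Scd2 turned from -0.23 to 0.0038 after quantile normalization. Elovl5 turned positive, at 0.10 (quantile), 0.059 (median-of-ratios), 0.049 (array weights) and 0.012 (WAT 1 and WAT 4 left out), and ran from -0.11 to 0.043 with 1 library left out. The cause was not tested. Smaller pseudocounts deepened falls to low levels, for Mlxipl to -7.70 (0.1) and -9.15 (0.01), with Mogat1, Pnpla3, Gpd1, Dgat2, Thrsp and Me1 alike in direction. The replicate numbers gave no clear sign of pairing, with same-numbered deviations correlated at -0.017, 0.0175, 0.0921 and 0.0332. WAT 3 correlated most with the tumour of its own number. Such low correlations cannot exclude a pairing. The replicate block gave 2664 rows higher and 3375 lower, and 3 and 24 genes of the pathway. Under the block Elovl1 and Agpat5 missed the threshold (adjusted p = 0.0724 and 0.0501) and Acsl4 passed (0.0468). Of genes named from the other lists, Prkaa1 and Pparg missed it under the block (adjusted p = 0.0666 and 0.105). Levels below about 0.05 FPKM rest on about 1 fragment.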

Other observations

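In the branch that turns diacylglycerol and phosphatidate into phospholipids, 7 of 15 tested genes were lower and the other 8 did not pass (limma), with a median log2 difference of -0.28 against -4.30 over the 4 triglyceride genes. Of all rows tested, 27.0% were lower and 18.9% higher. Chpt1, the choline phosphotransferase that uses diacylglycerol, was at 379, 331, 396 and 281 FPKM in WAT 1 to WAT 4. Chpt1 in LPS lay between 7.53 (LPS 2) and 26.9 FPKM (LPS 3), with a median of 13.0 FPKM, and it fell by a log2 difference of -4.54 ± 0.29 (SE, adjusted p = 5.45e-08). Chkb, a choline kinase (a joined row), fell, with a difference of -2.73 ± 0.16 (SE, adjusted p = 1.89e-08). Etnk1, an ethanolamine kinase and the most abundant not called, had a difference of 0.45 ± 0.18 (SE, adjusted p = 0.0604). The difference between the branches was not tested.

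Of 9 other acyl-CoA synthetases and acyl-CoA binding proteins, 7 were lower and 2 not called. Beside this list and those that follow, 27.0% of all rows tested were lower and 18.9% higher. Slc27a1, a fatty acid transport protein with synthetase activity, fell, with a difference of -5.58 ± 0.28 (SE, adjusted p = 6e-09), and Dbi, the acyl-CoA binding protein, fell too, at -4.06 ± 0.20 (SE, adjusted p = 4.25e-09). Dbi remained at 55.2 to 125 FPKM in the tumours. Of 5 genes that break down malonyl-CoA or release fatty acids from CoA, 4 were lower and 1 not called. Mlycd, malonyl-CoA decarboxylase, fell, with a difference of -2.18 ± 0.14 (SE, adjusted p = 4.34e-08), and Acot13, a thioesterase, fell too, at -2.17 ± 0.14 (SE, adjusted p = 4.44e-08). Of 14 other acyltransferases and phosphatases of glycerolipids, 7 were lower, 2 higher and 5 not called. Agpat9, a glycerol-3-phosphate acyltransferase, fell, with a difference of -4.67 ± 0.22 (SE, adjusted p = 3.98e-09), and Ppap2b, a lipid phosphate phosphatase, fell too, at -3.07 ± 0.30 (SE, adjusted p = 2.93e-06). Lpcat2 and Lpcat1, which remodel phosphatidylcholine, rose by 0.92 ± 0.31 (SE, adjusted p = 0.0296) and 0.59 ± 0.16 (SE, adjusted p = 0.00723). Lpcat2 lost its call without WAT 1, WAT 3 or WAT 4, with an adjusted p of 0.00512 to 0.208 over all alternatives, and Lpcat1 only with WAT 1 and WAT 4 both left out.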
